A study of Homo sapiens with 8 samples.

Results

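The regions described here are the 1443 H3K27ac peaks whose level fell by at least 1 on the log2 scale in each of 3 drug-resistant lines of 1 lung cancer cell line. They were chosen by the peak values themselves, as the peaks with a level of at least 3.91 in treatment-naive cells and a value at least 1 lower in each of the lines erCriz0, erAlec0 and erLor0. They are 2.08% of the 69506 peaks at that level limit and come from 126470 peaks in the deposited table. They are called lost peaks below, although many kept some signal. The values are rlog values, that is, log2 values of normalized reads in which features with few reads are drawn toward their mean, and a level of 3.91 corresponds to about 15 normalized reads. A change is the value of a resistant line minus the value of naive cells.

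The naive sample, H3122p, is NCI-H3122, an established lung adenocarcinoma line that carries the EML4-ALK fusion. The 3 resistant lines were derived from it by raising the dose of an ALK inhibitor stepwise, and the labels give resistance evolved in 0.5 μM crizotinib for erCriz0, in 2 μM alectinib for erAlec0 and in 2 μM lorlatinib for erLor0. All samples were labelled as treated in DMSO, and RNA was taken after a period without inhibitor, so none of the groups shows cells under the drug. Each line gave 1 ChIP-seq and 1 RNA-seq library, all 3 comparisons share the same naive library, and no difference has a replicate check, so neither an error nor a p-value is given. The other 4 of the 8 samples, erCriz1, erLor1, a sample after 2 weeks of lorlatinib and pooled input DNA, are not in the table's columns and were left out here. Each line is a bulk culture, in which a smaller share of cells carrying a mark and a weaker mark in every cell cannot be told apart.

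Acetylation of lysine 27 of histone H3 marks active promoters and active enhancers. It is written by the acetyltransferases EP300 and CREBBP and removed by histone deacetylases. Peaks at transcription starts are shared by many cell types, whereas enhancers in introns and between genes differ strongly between cell types and can act on genes at a distance. ALK is a receptor tyrosine kinase, and its fusion with EML4 signals without a ligand, in large part through the RAS and ERK cascade, whose targets include phosphatases and Sprouty proteins that dampen the cascade.

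Sequences from lost peaks are shown first, as the kind of DNA at which acetylation was lower. The first 2 are the middle 300 bases of peaks among the 4 with the largest mean fall, and the other 3 are whole peaks of at most 300 bases. All are hg38, forward strand, in lower case, and capitals mark matches on either strand to the AP-1 motif TGANTCA, the TEAD motif GGAATG and the SP/KLF motif GGGCGG.
Between PIWIL1 and RIMBP2, chr12:130385009-130385308: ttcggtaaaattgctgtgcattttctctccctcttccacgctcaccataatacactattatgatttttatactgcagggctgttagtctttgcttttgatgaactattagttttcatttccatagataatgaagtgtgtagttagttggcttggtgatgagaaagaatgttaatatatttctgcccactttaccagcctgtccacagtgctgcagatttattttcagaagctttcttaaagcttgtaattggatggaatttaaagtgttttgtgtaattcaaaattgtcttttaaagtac
FAM53A intron, chr4:1623841-1624140: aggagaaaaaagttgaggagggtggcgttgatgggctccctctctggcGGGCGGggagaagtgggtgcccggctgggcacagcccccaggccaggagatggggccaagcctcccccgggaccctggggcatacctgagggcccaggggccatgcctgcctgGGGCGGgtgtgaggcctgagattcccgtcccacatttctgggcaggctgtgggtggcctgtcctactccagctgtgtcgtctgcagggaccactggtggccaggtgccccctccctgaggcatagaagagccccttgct
NSG2 intron, whole peak, chr5:174188492-174188790: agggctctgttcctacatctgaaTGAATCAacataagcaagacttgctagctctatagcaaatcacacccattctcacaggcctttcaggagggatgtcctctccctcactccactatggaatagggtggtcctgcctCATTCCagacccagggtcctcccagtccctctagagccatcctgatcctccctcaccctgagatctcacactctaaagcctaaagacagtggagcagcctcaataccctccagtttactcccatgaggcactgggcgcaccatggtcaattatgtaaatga
PPP4R1L intron, whole peak, chr20:58272878-58273141: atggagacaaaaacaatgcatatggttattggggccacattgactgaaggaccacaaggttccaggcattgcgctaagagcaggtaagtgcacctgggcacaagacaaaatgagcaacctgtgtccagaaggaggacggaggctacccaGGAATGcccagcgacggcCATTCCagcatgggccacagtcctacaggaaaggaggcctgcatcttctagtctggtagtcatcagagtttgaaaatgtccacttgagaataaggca
ENSG00000285736 intron, between AFAP1L1 and GRPEL2, whole peak, chr5:149344170-149344454: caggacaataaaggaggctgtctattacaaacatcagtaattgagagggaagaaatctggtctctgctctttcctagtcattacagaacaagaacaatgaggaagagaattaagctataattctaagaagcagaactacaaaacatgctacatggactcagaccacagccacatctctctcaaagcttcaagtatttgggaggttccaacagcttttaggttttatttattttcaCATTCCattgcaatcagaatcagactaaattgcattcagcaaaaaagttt

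The 5 sequences differed widely in base composition. The FAM53A window was 67.3% G and C and held 2 SP/KLF matches and 8 CpG dinucleotides, whereas the RIMBP2 window was 34.3% G and C with 2 CpG and none of the marked motifs. The NSG2 peak held 1 AP-1 and 1 TEAD match, and the PPP4R1L peak held 2 TEAD matches.

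Over all lost peaks, the middle 300 bases were poorer in G and C than those of other peaks. Their median GC content was 44% (quartiles 39% and 50%), against 49.3% over all peaks at the level limit, and their median number of CpG was 2 against 4. At least 10 CpG, as at CpG-rich promoters, were held by 91 lost peaks, or 6.31%, against 22.8% of all peaks. Among peaks that cover no transcription start, that share was 5.38% of lost peaks against 11.8%. The median GC content was then 44% against 47.3%, and the median number of CpG 2 against 3. The SP/KLF motif, a GC box bound by factors of promoters, was held by 4.71% of lost peaks and 15.9% of all. Part of that gap went with base composition, since among windows of 39% to 50% GC it was 2.44% against 4.19%. Part went with position, since among peaks that cover no start it was 4.42% against 8.96%. The ETS motif CCGGAAG was held by 0.97% against 2.83%, and the E-box CAGGTG by 26.2% against 30.0%.

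The shares of the other motifs differed by fewer percentage points between lost peaks and all peaks than that of SP/KLF. The AP-1 motif was held by 154 lost peaks (10.7% against 10.1% of all), and by 15.6% of the 3635 peaks that fell by 1 in erAlec0 and erLor0 but not in erCriz0. The TEAD motif was held by 18.0% against 16.0%, the GATA motif AGATAA by 16.2% against 13.3%, the CEBP motif TTGCNNAA by 14.6% against 12.1%, the STAT motif TTCNNNGAA by 9.84% against 8.11%, the HNF1 motif GTTAATNA by 3.19% against 2.48%, the NKX2 motif TCAAGTG by 6.24% against 6.96%, and the FOX motif TGTTTAC by 4.71% against 4.41%. The shares were 5.34% against 3.39% for the TCF motif ATCAAAG and 5.41% against 3.62% for the SOX motif ACAATGG. With windows of 39% to 50% GC only, the TCF shares were 5.02% and 4.23%, and the SOX shares 5.56% and 4.26%. In the same windows the GATA shares were 16.1% and 17.2%, the NKX2 shares 6.65% and 9.13%, the CEBP shares 15.9% and 15.1%, the TEAD shares 19.1% and 18.0%, and the AP-1 shares 12.8% and 12.9%. Among peaks that cover no start, the AP-1 shares were 10.5% and 11.2%, and the FOX shares 4.71% and 4.77%. There the TEAD shares were 18.4% and 16.8%, the GATA shares 16.5% and 15.0%, and the CEBP shares 14.9% and 13.0%. Overlap of a match with other motifs was not removed. Lost peaks with an AP-1 match changed by a median of -1.28, -1.48 and -1.51 in erCriz0, erAlec0 and erLor0, and those without one by -1.28, -1.38 and -1.40. The rule set a limit on these changes, and nothing is read from their likeness.

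The levels of the lost peaks set them among the weaker peaks of naive cells. Their median level was 5.07 (quartiles 4.47 and 5.98, highest 11.46), against 5.52 over all peaks at the level limit. Of the 1443, 679 lay under 5 and 57 at 8 or above. In the resistant lines the medians were 3.76 (erCriz0), 3.66 (erAlec0) and 3.61 (erLor0), all under the level limit. The median change, which the choice of peaks fixes in direction, was -1.28, -1.39 and -1.41. Over all peaks at the level limit the median change was 0.02, -0.09 and -0.04. As background to the choice, 6.96% of those peaks fell by 1 in erCriz0, and the shares were 12.2% for erAlec0 and 11.0% for erLor0.

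**Figure D1:**
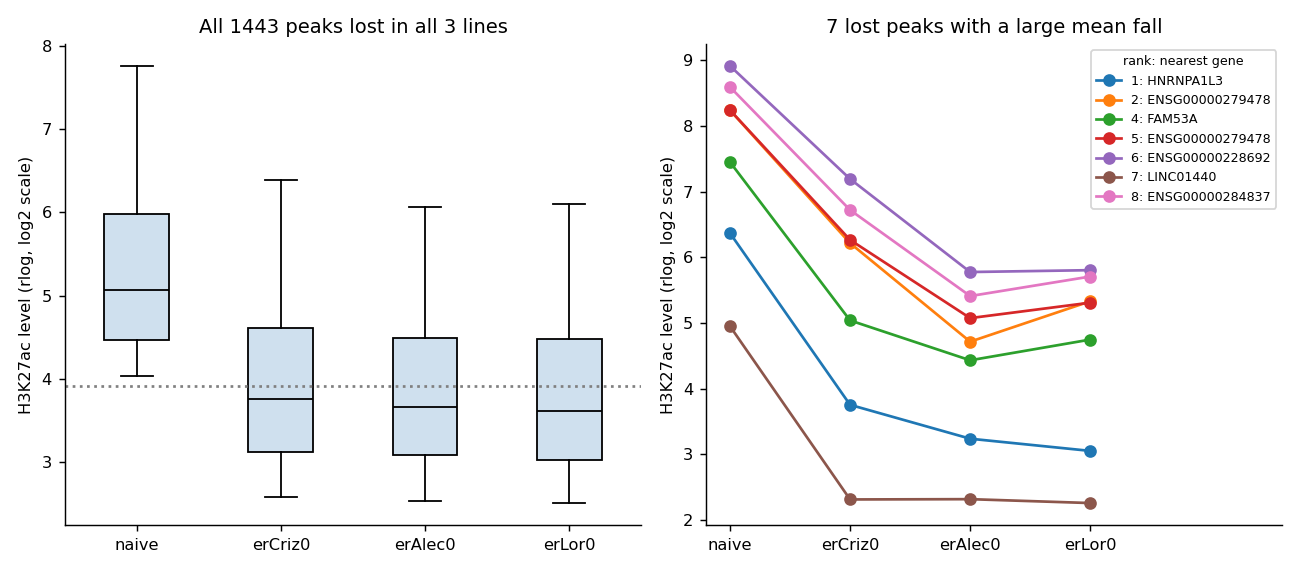
H3K27ac level on the rlog scale (y axis) in naive cells and the 3 resistant lines. Left, boxes are quartiles with the median and whiskers the 5th and 95th percentiles of the 1443 lost peaks, and the dotted line is the level limit of 3.91. Right, 7 of the 8 lost peaks with the largest mean fall, with lines that only join the values of 1 peak. The medians dropped from 5.07 to between 3.61 and 3.76.

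The rule required each resistant line to lie at least 1 below the same naive library, so the spread between the lines is given as a description only. The range of the 3 resistant values of a peak had a median of 0.388, and it was under 0.5 at 943 peaks (65.3%) and at least 1 at 70. The largest of the 3 falls was in erLor0 at 551 peaks, in erAlec0 at 491 and in erCriz0 at 401. The smallest was in erCriz0 at 667. A total of 740 lost peaks (51.3%) ended under the level limit in all 3 lines, and 504 (34.9%) stayed at or above it in all 3. A fall of 1.5 in every line was reached by 140 peaks and a fall of 2 by 19.

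Where 4 values are given in a row below, they are those of naive cells, erCriz0, erAlec0 and erLor0 in this order, and 3 values or changes are those of the 3 resistant lines in the same order. The largest mean fall was at a 1755 bp peak in an intron of HNRNPA1L3 (chr16:51622194-51623948), with levels of 6.37 in naive cells and 3.76, 3.24 and 3.05 in erCriz0, erAlec0 and erLor0. The second was at chr12:130383765-130386554, beyond the 3' end of RIMBP2, where the level was 8.24 in naive cells and 6.22, 4.72 and 5.33 in erCriz0, erAlec0 and erLor0. In both, every resistant line lay at least 2 below naive cells. The fifth, at chr12:130387583-130391493, lies next to the second in the same group of peaks and went from 8.24 to 6.27, 5.08 and 5.31.

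The fourth lay in an intron of FAM53A (chr4:1622470-1625512) and went from 7.45 to 5.04, 4.43 and 4.75. The RNA of FAM53A was low throughout, at 2.46, 2.48, 2.41 and 2.52, under the limit of 4.64 (25 normalized reads) used here for an expressed gene.

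The sixth lay beyond QKI, an RNA-binding protein gene (chr6:163585296-163591482), and went from 8.92 to 7.19, 5.78 and 5.81. The seventh, in LINC01440 (chr20:55539376-55540156), went from 4.95 to 2.31, 2.32 and 2.26, the most even fall of the 7 peaks given here. The eighth, in 2 overlapping unnamed lncRNA genes (chr17:5824502-5831335), went from 8.59 to 6.72, 5.41 and 5.71. At 6 of these 7 peaks erCriz0 kept the highest of the 3 resistant values, and at the LINC01440 peak the lines differed by less than 0.1.

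The longest lost peak and the one with the highest naive level were the same, a 14288 bp peak in the immunoglobulin heavy chain variable region (chr14:106196566-106210853). Its level was 11.46 in naive cells and 8.74, 9.75 and 9.38 in erCriz0, erAlec0 and erLor0. It was followed by a 13662 bp peak in FAM53A (chr4:1606397-1620058), with levels of 10.52, 8.89, 7.72 and 7.98. A 9972 bp peak at SERINC2 (chr1:31428173-31438144) had 9.56, 8.32, 7.58 and 7.32. These strong and long peaks kept levels far above the limit in every line.

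Near the edge of the rule the values ran on without a gap. The peaks just inside it had a smallest fall of 1.00, as at chr7:22599955-22600372 (3.94 in naive cells, then 2.63, 2.94 and 2.87). A peak just outside, in RC3H2 (chr9:122857683-122858070), had 4.33, 3.08, 3.26 and 3.33. A further 777 peaks fell by 1 in all 3 lines from a naive level under the limit and are not counted here.

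Lost peaks were short. Their median length was 779 bp (quartiles 558 and 1268.5 bp, range 238 to 14288 bp), against 1113 bp over all peaks at the level limit. Peaks of 500 bp to under 1 kb were lost most often, at 3.55%, and peaks of 5 kb and over least often, at 0.300% (19 of 6323). By level, 2.90% of the peaks between 5 and 6 were lost and 0.466% of those at 8 or above.

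Lost peaks lay away from transcription starts. Only 85 of them (5.89%) covered the start of an annotated transcript, against 25.5% of all peaks at the level limit. Introns held 807 (55.9% against 43.4%), the space between genes 361 (25% against 17.1%) and exons 190 (13.2% against 14.0%). The median distance to the nearest start was 8936 bp, against 3189 bp. Since weak and short peaks seldom cover a start, the share was also read within bands. It was lower in lost peaks in each of 5 bands of level and each of 5 bands of length. At a naive level of 8 or above it was 29.8% of 57 lost peaks against 62.2% of all, and from 500 bp to under 1 kb it was 3.17% against 11.4%.

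The 2 other kinds of changed peak differed in opposite ways from all peaks in their share at starts. In position, the 3635 peaks that fell by 1 in erAlec0 and erLor0 only were much like the lost peaks. They had 9.30% at starts and 57.3% in introns. They were longer, with a median of 1212 bp against 779 bp in lost peaks and 1113 bp in all peaks. Their median naive level was also higher, at 5.80 against 5.07 and 5.52. The 346 peaks that rose by 1 in all 3 lines had 37.3% at starts. These shares are descriptions of sets drawn from the same 4 libraries.

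**Figure D2:**
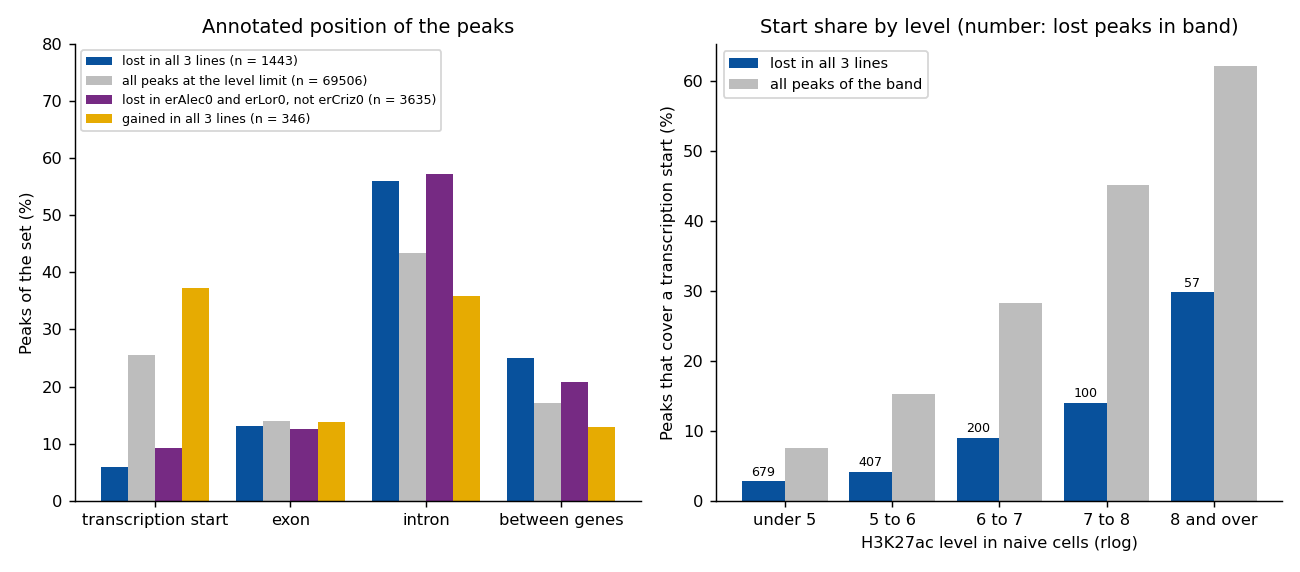
Left, percent of each set of peaks (y axis) that covers a transcription start, else lies in an exon, an intron or between genes (x axis). Right, percent of peaks that cover a start (y axis) within bands of the naive H3K27ac level (x axis), with the number of lost peaks above each blue bar. Lost peaks covered a start in 5.89% of cases against 25.5% of all peaks, and the blue bar is the lower in every band.

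Lost peaks were spread over all chromosomes apart from Y but not evenly. Chromosome 6 had the highest share, with 187 lost peaks or 4.45% of its peaks at the level limit, followed by chromosome 20 with 4.26% and chromosome 5 with 3.86%. Chromosomes 22 and 17 had the lowest, 0.564% and 0.803%. Over windows of 10 Mb, with those that held few peaks left out, 51 of 290 held no lost peak. The highest share among them was 20.2% (35 of 173 peaks) at 80 to 90 Mb of chromosome 12, the window of DUSP6. The peaks of that window that were not lost had a median change of -0.38, -0.45 and -0.80.

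**Figure D3:**
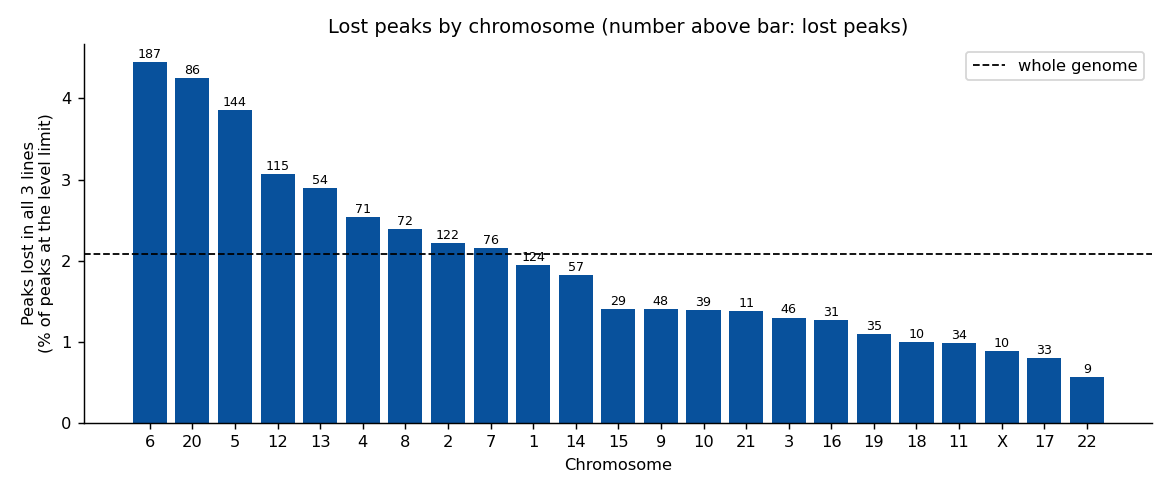
Percent of the peaks at the level limit that were lost in all 3 lines (y axis) for each chromosome (x axis), with the number of lost peaks above each bar and the share over the genome, 2.08%, as the dashed line. Chromosomes 6, 20 and 5 lie highest.

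The other peaks around each lost peak were read for a lower level over a wide region. Within 5 Mb their median change in erCriz0, erAlec0 and erLor0 was, at the median lost peak, -0.03, -0.16 and -0.11, against 0.04, -0.07 and -0.01 over all other peaks. Surroundings at -0.5 or lower were found at 51, 122 and 135 lost peaks in the single lines and at none in all 3 lines. On chromosome 20 the other peaks had a median change of -0.20, -0.39 and -0.24. Within 1 Mb the values were -0.16, -0.30 and -0.30, so that the nearer peaks were lower. Copy number itself was not analysed here.

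Many lost peaks lay in groups. Chained at distances of up to 50 kb, they formed 714 groups, of which 439 were single peaks and 275 held at least 2. The latter held 1004 peaks (69.6%), and 55 groups of at least 5 held 434 (30.1%). Lost peaks of 1 group share a region and are not independent of each other. The same shares were not computed for other sets of peaks, which can also lie close together. Whether the grouping is particular to lost peaks was therefore not tested.

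The largest group held 19 of the 37 peaks in 197 kb around and downstream of DUSP6 (chr12:89168276-89365757). The next held 16 of 19 peaks in 61.4 kb at GPIHBP1, ZFP41 and GLI4. It was followed by 15 of 21 peaks in 121 kb at PIWIL1 and RIMBP2 (chr12:130281552-130402374), 14 of 19 peaks in 63.1 kb at FAM53A (chr4:1570098-1633149), and 14 of 21 peaks in 97.0 kb at chr6:105715921-105812932. In the DUSP6 group the median changes of lost peaks were -1.24, -1.57 and -1.69, and those of the other peaks in its span -0.71, -1.29 and -1.51. The other peaks in the FAM53A span changed by a median of -0.44, -0.67 and -0.28, less than those at DUSP6.

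The genes within 20 kb of a lost peak were 1546 in number, of which 721 were protein-coding and 479 lncRNA genes, and 437 were at 0 in every RNA library. A total of 544 were expressed, and they are 4.35% of the 12515 expressed genes paired with any peak at the level limit. No expressed gene was paired with 40.9% of lost peaks, against 23.2% of all peaks.

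The RNA of these genes was measured separately and was not used to choose the peaks. In naive cells and the resistant lines the epithelial genes EPCAM, KRT8, KRT18, KRT19 and CDH1 lay between 11.38 and 15.17, the lung transcription factor gene NKX2-1 between 8.67 and 9.18, and PTPRC of blood cells at 0. The surfactant gene SFTPB, at 1.64 to 2.03, was under the expression limit. The stromal genes LUM and DCN, at 1.45 to 2.25, were also under it. The endothelial gene CDH5, at 4.10, 4.28, 5.78 and 5.64, was above it in erAlec0 and erLor0. LUM and DCN each had 2 lost peaks among 4, and none of the other genes named here was paired with one.

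The RNA of expressed genes next to lost peaks had medians near 0. In erCriz0, erAlec0 and erLor0 the median RNA change was 0.02, 0.06 and 0.01, against -0.02, 0.0015 and -0.0046 over all 12515 expressed genes. Of the 544, 12 (2.21%) were down by 1 in erCriz0, where 1.64% of all were, 12 (2.21%) in erAlec0, where 2.04% were, and 7 (1.29%) in erLor0, where 0.727% were. More were up by 1, with 22 (4.04%) in erCriz0 against 2.60% of all, 31 (5.70%) in erAlec0 against 2.41%, and 8 (1.47%) in erLor0 against 1.07%. In all, 478 genes (87.9%) stayed within 1 of naive cells in every line, against 91.8% of all expressed genes, and 119 (21.9%) lay below naive cells in all 3, against 24.6% of all expressed genes.

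Genes nearer to lost peaks or with more of them were read apart. For the 35 expressed genes with a transcript start inside a lost peak, the median RNA change was -0.13, 0.02 and -0.01. In erCriz0, erAlec0 and erLor0, 65.7% (23 genes), 45.7% and 51.4% of them were below naive cells. Among the 11393 expressed genes with a start inside any peak at the level limit, 52.1%, 50.1% and 51.3% were. Of the 35, 3 (8.57%), 1 (2.86%) and 1 (2.86%) were down by 1, where 1.56%, 1.93% and 0.685% of those 11393 were. In the same lines 5 (14.3%), 2 (5.71%) and 0 were up by 1, against 2.27%, 2.19% and 0.939%. For the 44 expressed genes with at least 5 lost peaks the median was -0.11, 0.13 and -0.03. A set of 15 genes had at least 3 lost peaks that also made up 50% or more of their peaks. Its median was 0.55, 0.25 and -0.0044, with 2, 3 and 0 genes up by 1 and none down by 1, where 1.64%, 2.04% and 0.727% of all expressed genes were down. These sets are small, so that 1 gene moves a share widely.

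**Figure D4:**
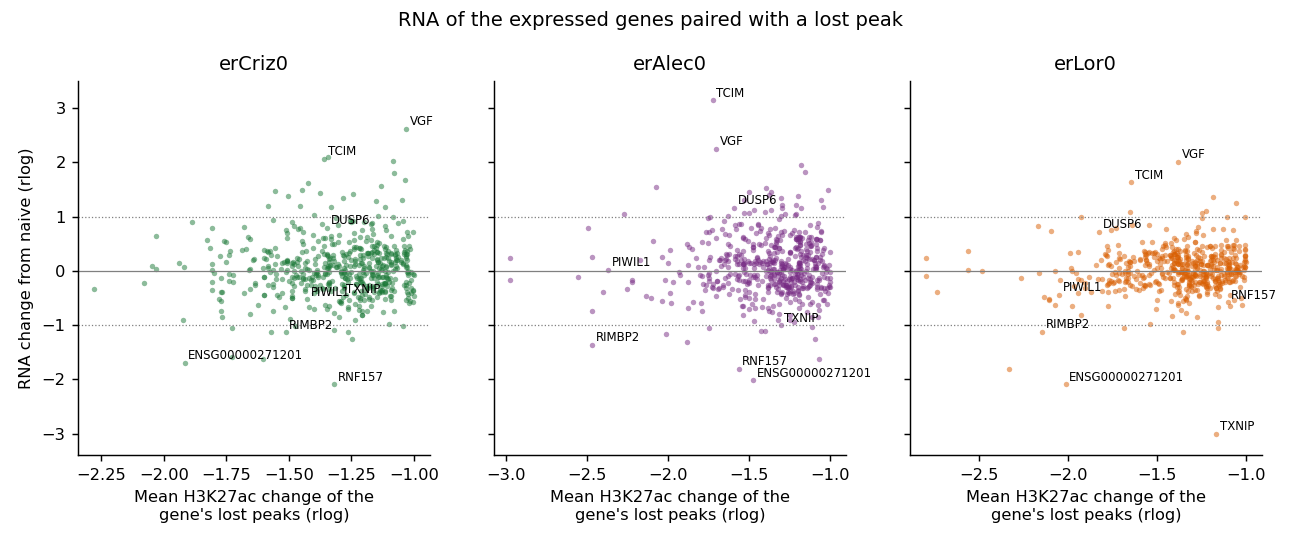
RNA change from naive cells (y axis, rlog) against the mean H3K27ac change of a gene's lost peaks (x axis, rlog) for the 544 expressed genes, 1 panel for each line, with dotted lines at -1 and 1. Most genes lie within 1 of naive cells in RNA, and VGF, TCIM, RIMBP2 and a few others stand outside.

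Of the 544 genes, 3 were down by 1 in RNA in all 3 lines, as were 30 of all 12515 (0.240%). The first was the lncRNA gene ENSG00000271201 (chr14:106206603-106208571), which lies inside the long peak of the immunoglobulin region. Its RNA was 5.69 in naive cells and 3.99, 3.67 and 3.60 in erCriz0, erAlec0 and erLor0, and both of its peaks at the level limit were lost. The second was RIMBP2, which encodes a protein of the presynaptic active zone, at 6.38, 5.25, 5.02 and 5.25. The third was H2AC12, a histone H2A gene, at 8.80, 7.20, 7.17 and 7.74. Histone genes are near-identical copies, so the share of reads each receives is uncertain. H2AC12 and the neighbouring H2BC12 are paired with the same lost peak, about 19.3 kb from the H2AC12 start, and the peak over its start was not lost (8.54, 8.27, 8.92 and 8.79).

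At RIMBP2 (chr12:130396137-130716281, minus strand) 7 of 16 peaks were lost, and all 7 lay at the 3' end, 315 to 340 kb from the start. Their median changes were -1.38, -2.41 and -2.18. The other 9 peaks had median changes of 1.24, -0.93 and -0.83. The peak over the start went from 6.94 in naive cells to 8.95, 6.35 and 6.63 in erCriz0, erAlec0 and erLor0. Thus in erCriz0 the start peak was 2.02 higher while the RNA changed by -1.13. PIWIL1, a Piwi protein gene of the germ line that lies beside these peaks, had 10 of 13 peaks lost, the one over its start included (6.18, 4.93, 3.92 and 4.55). Its RNA was 7.30, 6.77, 7.32 and 6.86, a change of -0.53, 0.02 and -0.44. A 24882 bp peak within PIWIL1 was not lost (11.81, 11.48, 9.08 and 9.73) and changed by -0.33, -2.73 and -2.08.

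Among other genes with large mean RNA falls the lines differed. TXNIP, whose product binds thioredoxin and restrains glucose uptake, had 13.00, 12.52, 11.99 and 9.99, lowest in erLor0. RNF157, a ubiquitin ligase gene, had 7.77, 5.68, 5.97 and 7.19, and GUCY1A2, a subunit of soluble guanylate cyclase, 7.15, 5.52, 5.85 and 6.34. SLC12A2, a sodium, potassium and chloride cotransporter, had 9.33, 8.31, 8.17 and 8.50. RNF157 and GUCY1A2 were lowest in erCriz0 and SLC12A2 in erAlec0. H2BC12 had 12.05, 11.00, 11.34 and 11.38. Few of their peaks were lost, namely 1 of 4 at TXNIP, 1 of 10 at RNF157, 1 of 15 at GUCY1A2, 2 of 6 at SLC12A2 and 1 of 3 at H2BC12. The other 9 peaks of RNF157 had median changes of 0.09, -0.05 and 0.41. SEMA3F, a secreted semaphorin of axon guidance, had 11.30, 10.17, 10.95 and 10.45.

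SEMA3F had 5 of 17 peaks lost, next to each other in the 3' part of the gene, 23.3 to 31.7 kb from its start. The strongest of them went from 8.16 to 6.71, 6.67 and 6.94. The peak over the start went from 12.62 to 12.28, 11.32 and 12.05. The RNA was lowest in erCriz0, while the start peak was lowest in erAlec0.

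Rises in RNA beside a lost peak were as large. VGF, a precursor of secreted neuropeptides, had 9.26 in naive cells and 11.87, 11.51 and 11.27 in erCriz0, erAlec0 and erLor0. TCIM, a small regulator of transcription, had 5.09, 7.16, 8.24 and 6.73. These 2 of the 544 were up by 1 in all 3 lines, as were 19 of all 12515 (0.152%), and each had 1 lost peak among 8 and 7 peaks. The VGF lost peak lies 22.3 kb from the VGF start. CD55, which protects cells from complement, had 11.46, 13.50, 13.00 and 12.25 with 1 of 18 peaks lost. RIMS1, of the presynaptic active zone, had 4.97, 7.07, 5.88 and 5.96, and LTBP1, which binds latent TGF-beta, 6.94, 8.61, 7.98 and 7.77.

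Among the expressed genes with most lost peaks the RNA stayed within 1 of naive cells. The lncRNA gene ENSG00000258077 had 15 of 70 peaks lost and an RNA of 4.68, 4.26, 4.58 and 4.45. ZFP41, a zinc finger gene, had 13 of 23 lost and an RNA of 7.53, 7.72, 7.51 and 7.37. PLA2G4A, the cytosolic phospholipase A2 that releases arachidonic acid, had 12 of 31 lost and 9.01, 9.09, 9.39 and 9.15. SLC22A23, a solute carrier, had 12 of 44 lost and 9.84, 10.00, 9.69 and 9.72.

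The remaining genes of this group were PIWIL1, given above, and 5 others. SERINC2 had 10 of 26 lost and an RNA of 9.56, 8.92, 10.23 and 9.41. PPP4R1L, a transcribed pseudogene, had 10 of 21 lost and changed by -0.15, 0.51 and 0.13. BCAR3, an adaptor protein gene, had 10 of 54 lost and changed by -0.11, 0.80 and 0.73, and PDE8A, a cyclic AMP phosphodiesterase, had 10 of 49 lost and changed by -0.16, 0.02 and 0.19. LAMA5, a laminin chain of basement membranes, had 9 of 26 lost, all in the gene body, and an RNA of 12.68, 11.98, 12.50 and 12.22. None of these 10 genes moved by 1 in any line, where 91.8% of all 12515 expressed genes did not either. Of the 119 expressed genes with at least 3 lost peaks, 81.5% stayed within 1 in every line.

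Gene groups were then read by their counts of genes beside a lost peak, against 4.35% of expressed genes in all. The group of ERK feedback and output genes had 6 of its 21 expressed genes there, or 28.6%. Axon guidance and synaptic adhesion had 7 genes, of which 5 of its 22 expressed (22.7%). The shares below are likewise of the expressed genes of a group that were paired with a peak at the level limit. Receptor tyrosine kinases and ligands had 2 (EPHA2 and MET, 10.5%). TGF-beta and BMP genes had 2 (SMAD3 and BMP4), of which SMAD3 was expressed (4%). WNT and Notch genes had 3 (TCF7L2, WNT10A and HES1), of which WNT10A was not expressed (8%). Epithelial transcription factors had 1 (TP63, 4.17%) and H3K27 acetylation factors 1 (KDM6B, 3.70%). Of the 30 alveolar and airway lineage genes in the table, none was beside a lost peak. Long genes and genes in regions rich in peaks are within 20 kb of more peaks, and the shares are not corrected for this.

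The lower acetylation at the lost peaks of the 6 ERK genes was set by the rule. None of the 6 fell by 1 in RNA, and neither did any of the 21 genes of the group. Over all expressed genes 1.64%, 2.04% and 0.727% did, so few falls would be looked for in 6 genes. DUSP6 encodes the phosphatase that inactivates ERK. Its RNA was 11.86 in naive cells and 12.65, 13.03 and 12.58 in erCriz0, erAlec0 and erLor0, so that every resistant line was higher. Of its 12 peaks 6 were lost, with median changes of -1.27, -1.69 and -1.84. The nearest downstream one went from 7.48 to 6.41, 5.42 and 5.45, the largest resistant level being that of erCriz0.

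The loss at DUSP6 spared the start. The 17906 bp peak over the start had 12.25 in naive cells and 12.48, 11.83 and 12.06 in erCriz0, erAlec0 and erLor0. Within 200 kb of the start there were 60 peaks, of which 19 were lost, from 11.8 kb upstream to 184 kb downstream. Of the other 41, 37, 35 and 38 were below naive cells in erCriz0, erAlec0 and erLor0, and 8, 20 and 27 were down by 1. Over the genome, 68063 peaks at the level limit were not lost, and 3398, 7035 and 6213 of them were down by 1. The median change of those 68063 peaks was 0.04, -0.07 and -0.01 in the same lines. Lower acetylation thus extended over the flanks of the gene while its RNA was 0.79, 1.17 and 0.72 higher.

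**Figure D5:**
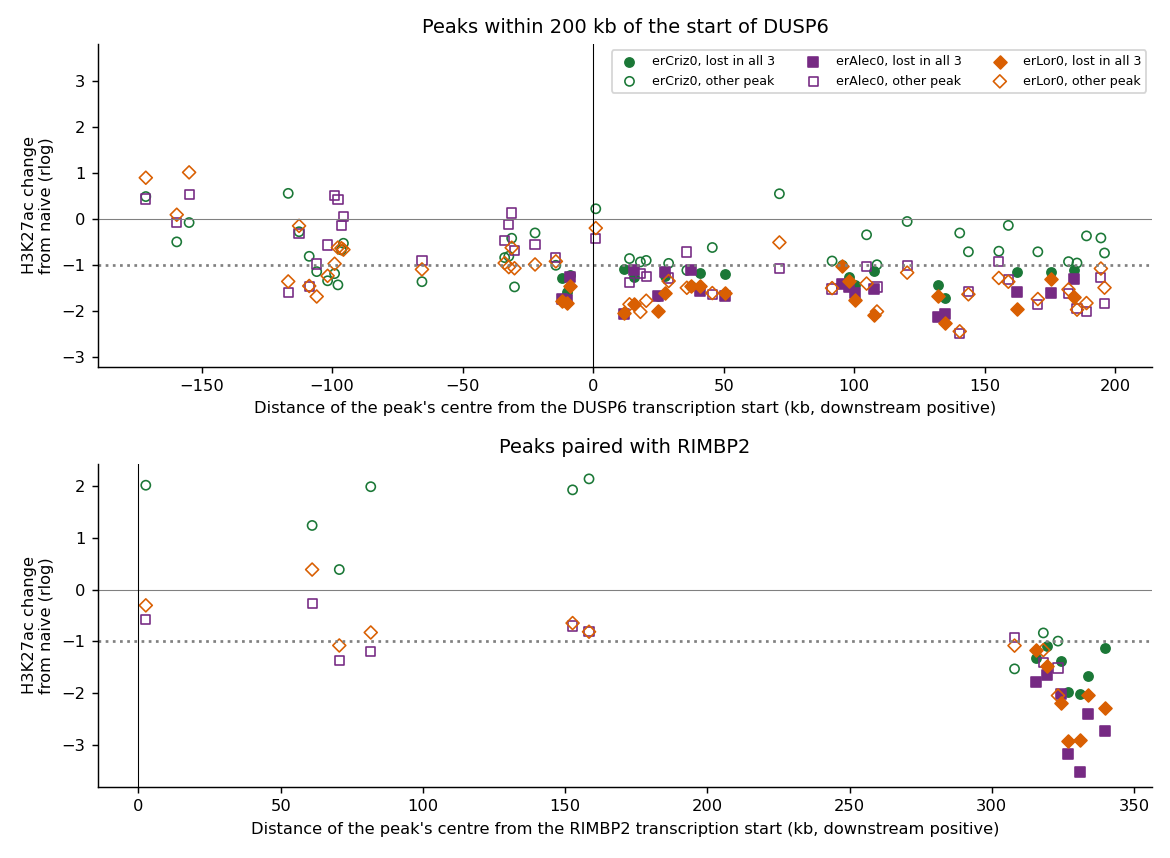
H3K27ac change from naive cells (y axis, rlog) of the peaks within 200 kb of the DUSP6 start (top) and of the peaks paired with RIMBP2 (bottom), by distance of the peak's centre from the start in kb (x axis), with filled symbols for lost peaks, open symbols for others and 1 symbol shape for each line. Lost peaks flank the DUSP6 start peak, which changed by less than 0.5, and at RIMBP2 they lie 315 kb and more from the start, where in erCriz0 the start peak is 2.02 higher.

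The other ERK genes had fewer lost peaks. PHLDA1, which ERK signalling induces, had 3 of 15, all within 3 kb of the start that the table gives. Their levels went from 5.77 to 4.56, 4.49 and 4.02, from 6.10 to 4.84, 4.03 and 4.32, and from 4.75 to 2.91, 2.92 and 3.13, while its RNA was 12.33, 12.47, 13.09 and 12.82. SPRY4, a Sprouty inhibitor of receptor signalling, had 2 of 13 lost, both upstream, and an RNA of 9.83, 9.71, 10.50 and 10.35. IER3, an immediate early gene, had 1 of 9 lost (5.44, 3.67, 4.37 and 3.67) and an RNA of 12.30, 12.17, 13.19 and 12.68. ETV4, an ETS transcription factor, had 1 of 9 lost and changed in RNA by -0.64, 0.14 and 0.29, and MAFF, a small MAF factor, had 1 of 14 lost and changed by -0.02, 0.58 and 0.41. In erAlec0 and erLor0 the RNA of all 6 was above naive cells, and in erCriz0 that of DUSP6 and PHLDA1 was.

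Of the axon guidance and synaptic genes, RIMBP2 and SEMA3F are described above. EFNA5, an ephrin ligand, had 2 of 36 peaks lost and an RNA of 9.66, 10.15, 9.40 and 9.19. CDH4, a cadherin, had 2 of 11 lost but its RNA was about -0.81 in naive cells, far under the expression limit, as low as in the resistant lines. EPHA2, an ephrin receptor, had 1 of 10 lost and an RNA of 10.55, 10.91, 12.05 and 11.29, and MET, the HGF receptor, 1 of 18 lost and RNA changes of 0.72, 0.11 and -0.04. Thus the RNA of EPHA2 was above naive cells in every line and that of MET in 2 lines. SMAD3 had 2 of 25 lost and RNA changes of 0.03, 0.14 and -0.10. HES1, a Notch target, had 1 of 12 lost and 0.08, 0.29 and 0.25. TCF7L2 had 1 of 13 lost and -0.22, 0.19 and -0.23. These changes were all under 0.3 in size. KDM6B, a demethylase of H3K27, had 1 of 14 lost and -0.55, 0.60 and 0.28. TP63 had 1 of 32 lost and -0.01, 0.77 and -0.16.

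Genes that carried a lost peak over a transcript start moved in both directions. PLA2G6, a phospholipase, had an RNA of 7.24, 6.26, 6.86 and 7.06, and LTBP4, of the latent TGF-beta binding family, 9.57, 8.72, 9.37 and 9.43, both lowest in erCriz0. PRMT5, an arginine methyltransferase, had 11.52, 11.21, 10.96 and 11.24. It was lowest in erAlec0. On the other side, ANTXR2, an anthrax toxin receptor, had 9.47, 10.90, 10.54 and 9.76. CCDC80 had 5.16, 6.54, 5.92 and 5.17. Both were highest in erCriz0. These 5 genes were chosen after their values were seen. Many genes have several annotated starts, and the start inside a lost peak need not be the one in use.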

How the data were processed

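The deposited table pairs merged H3K27ac peaks with genes that lie within 20 kb, so peaks with no gene that near are not in it. Its log2 values were made by the authors with the rlog function of DESeq2 from the counts of 4 libraries. ChIP-seq reads were aligned to hg38 with BWA, filtered at a mapping quality of 25, called with MACS2 at a q of 0.05, merged over samples and counted with featureCounts. RNA-seq reads were aligned with HISAT2 and counted with HTSeq-count. Versions are not given in the sources used here. The rlog transform shrinks differences of features with few reads and keeps no read totals. Library depth is therefore unknown, and counting errors could not be computed. The table also holds 3 columns of the authors' own comparisons, namely a correlation of peak and gene, with p-values before and after adjustment, which were not used.

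Peaks were counted once each. A gene was called expressed at an rlog of at least 4.64 in at least 1 library, and changed at 1, the limit in the study's methods. Starts, exons and introns came from GENCODE 44 on hg38, in which 43669 of 43869 genes were matched and all 34115 of the same version had identical coordinates. A peak was placed first by any transcript start it covers, then by exon, then by gene body. Motif matches were counted in the middle 300 bases on both strands. No test was run. The named peaks are the 8 with the largest mean fall, the 3 longest, the 3 highest and those at the edges of the rule. The named genes are those with most lost peaks, those down in all 3 lines, the largest mean RNA falls and rises, and the list genes beside a lost peak. Some genes, peaks and sequences that these rules name are not reported here. Other genes are marked as chosen after their values were seen. The peaks, the gene lists and the motifs were chosen with earlier results of these data known. Alternatives varied the limits, the scaling, the pairing and the distances. The scripts were tested on simulated data with Python 3.11.15, numpy 2.4.6, pandas 2.3.3 and scipy 1.17.1.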

Additional observations from a re-analysis of the deposited data

How the results depend on the processing

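With 1 library per line, a value was taken as moved under an alternative when it left the 95% interval of its own count or median, which covers the number of peaks or genes only. Of 81 alternative values 35 stayed within it. The share of lost peaks was 8.93% with a 1.5-fold limit, 0.201% with a limit of 1.5, 0.0273% with a limit of 2, 1.76% with no level limit, 1.78% with a level limit of 5, 1.59% with each library centred on its median, 2.51% after quantile normalization, and 2.54% and 1.73% among peaks written to at most and to more than 6 decimals. Quantile normalization kept 1258 of the 1443 lost peaks and centring 1093.

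The median RNA change in erCriz0 was 0.15 with peaks paired with 1 gene, -0.13 with a start inside the peak, 0.076 with RNA centred and 0.11 with a peak limit of 1.5. In erAlec0 it was 0 with no RNA filter and -0.00098 with the peak limit of 1.5, and in erLor0 -0.025 with 1 gene and -0.13 with that limit. With an RNA limit of 1.5-fold the share down was 7.90%, 8.09% and 4.41%, against 8.48%, 7.95% and 3.58% of all expressed genes, and with a limit of 1.5 it was 0.735%, 0.551% and 0.551%, against 0.264%, 0.439% and 0.192%. With no RNA filter it was 0.776%, 0.776% and 0.453%, against 0.539%, 0.678% and 0.244% of all genes beside a peak at the level limit, and with a start inside the peak 8.57% in erCriz0 and 2.86% in erLor0, against 1.56% and 0.685% of genes with a start inside any such peak.

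The share at starts was 13.4% within 1 kb of a start (35.7% of all peaks), 3.33% for protein-coding starts (20.9% of all) and 8.64% at a level limit of 5 (36.6% of all). The median length was 997 bp with a limit of 1.5, 1222 bp with a level limit of 5 (1993 bp for all peaks) and 1022.5 bp after quantile normalization (1148 bp for all peaks). The share with another lost peak nearby was 62.7% at 20 kb and 72.5% at 100 kb. No paired analysis was possible because each line has 1 library.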
